A study of Mus musculus with 29 samples.

Results

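Expression of 10 genes of the bone morphogenetic protein (BMP) pathway was followed in late embryonic mouse cortex. The cortex had a conditional deletion of 2 subunits of the BAF chromatin remodelling complex, and controls were set beside it. The genes were chosen by name from the pathway, as 3 ligands (Bmp4, Bmp6 and Bmp7), 4 Id targets (Id1, Id2, Id3 and Id4), 2 Msx targets (Msx1 and Msx2) and the inhibitory Smad6. They are 10 of 38355 genes in the count tables of untreated tissue and 10 of 48709 genes in the tables of treated tissue. RNA-seq of 19 libraries in 5 groups and H3K27me3 ChIP-seq of 8 libraries were analysed, all from embryos at E17.5.

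BMP ligands bind paired receptor kinases, which phosphorylate the receptor Smads, and these enter the nucleus with Smad4 and switch on target genes. Id proteins hold back basic helix-loop-helix factors that drive neuronal differentiation, Msx proteins are homeobox repressors, and Smad6 feeds back to block the receptors. In the forebrain the pathway is known for its role at the dorsal midline, where the cortical hem and the choroid plexus form next to the pallium.

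The untreated pallium gave 4 libraries lettered C and 3 lettered M (numbers 2, 3 and 4), and ChIP-seq was made from 4 libraries lettered C and 4 lettered K. The deposited genotype of all of these reads BAF dcKO_hGFAP-Cre, the C libraries included, so the letters of the sample names were used. By the study's methods C is the control and M and K are the double conditional knockout (dcKO), in which Smarcc1 (BAF155) and Smarcc2 (BAF170) are floxed and deleted by Cre under the human GFAP promoter. The treated cortex gave 4 WT vehicle libraries, 4 of dcKO vehicle and 4 of dcKO Wnt inhibitor, and by the methods pregnant dams were injected daily with ICG-001 or its DMSO vehicle. The controls were littermates, and the methods describe control animals that carry Cre and 1 floxed copy of each gene, where the labels say WT. The promoter acts in radial glia of the medial pallium first and of the dorsal and lateral pallium later. Pallial neurons born before it acted, and cells of other origin in the dissected tissue, thus kept both genes. The labels do not say whether libraries came from separate embryos, so p-values measure the spread between these libraries.

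The deleted genes were examined first. Smarcc1 stood at 247, 264, 269 and 248 CPM (counts per 1000000 of the library, TMM-scaled) in C 1 to 4, and at 245, 128 and 135 in M 2, 3 and 4. In WT vehicle it stood at 245, 266, 299 and 256, in dcKO vehicle at 136, 242, 133 and 138, and in dcKO Wnt inhibitor at 214, 252, 140 and 173. The libraries labelled M 2 and dcKO vehicle 2 thus held Smarcc1 next to the lowest control and library 2 of the inhibitor group held it within the WT range, and Smarcc2 was likewise at 670, 692 and 695 CPM there, against 654 to 714 in C and 664 to 834 in WT vehicle. In these 2 genes the 3 libraries go against their labels, and the plot of fold changes shows every tested member with and without them. Not every gene placed M 2 and dcKO vehicle 2 with the controls, though Id2, given below, set them apart from their groups. The lowest Rspo2, one of the cortical hem markers, was 19 CPM in M and 19.1 in dcKO vehicle. The highest was 15.7 CPM in C and 15.2 in WT vehicle. Fits without both libraries numbered 2, or without inhibitor libraries 1 and 3, were chosen after the data were seen. Library 1 of the inhibitor group, at 214 CPM of Smarcc1, also lay nearer to WT than to the other dcKO libraries.

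The other checks of the libraries touch the results as follows. Total counts per library ranged from 11946658 to 28391046 in the untreated and from 12514443 to 26600594 in the treated tissue. Markers of the pallium and its excitatory neurons (8 genes) were present in every library, at a sum of 2530 to 3310 CPM in C, 3350, 1890 and 2080 in M 2, 3 and 4, 2600 to 3490 in WT vehicle, 1840, 3230, 2000 and 2240 in dcKO vehicle and 2450 to 2710 in the inhibitor libraries. Summed markers of the choroid plexus (9 genes, led by Ttr) were 868, 168, 498 and 12.5 CPM in inhibitor libraries 1 to 4, 138 in C 4, 136 in WT vehicle 4 and 6.47 to 20.1 in the other 13. Summed markers of meningeal fibroblasts (9 genes) were 75.1 to 82.4 CPM in C 2, C 4, WT vehicle 2, WT vehicle 4 and inhibitor library 4, and 16.1 to 40.3 in the other 14. Same-numbered libraries of the 2 experiments resembled each other. Each of the 7 untreated libraries deviated from its group mean most like the treated library of the same number in the corresponding group (r = 0.204 to 0.805 over 15220 genes, against -0.698 to 0.5 for other numbers), so the 2 experiments are not given here as independent of each other.

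The promoters below are shown because Id2 and Smad6 were lower in the dcKO libraries once libraries numbered 2 were left out, and because Msx1 and Smad6 carried H3K27me3 while Id2 and Id4 carried nearly none. Each is the 250 bases before the RefSeq start on GRCm38.p6, 5′ to 3′ on the gene's strand, with the letters GGCGCC, the core of a GC-rich element that BMP Smads are known to bind, in capitals.
Id2, chr12:25096093-25096342, minus strand: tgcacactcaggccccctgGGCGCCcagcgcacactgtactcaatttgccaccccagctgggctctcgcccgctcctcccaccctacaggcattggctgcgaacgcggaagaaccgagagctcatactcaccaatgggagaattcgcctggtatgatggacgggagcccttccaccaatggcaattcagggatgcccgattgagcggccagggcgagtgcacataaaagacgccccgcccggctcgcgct
Id4, chr13:48260866-48261115, plus strand: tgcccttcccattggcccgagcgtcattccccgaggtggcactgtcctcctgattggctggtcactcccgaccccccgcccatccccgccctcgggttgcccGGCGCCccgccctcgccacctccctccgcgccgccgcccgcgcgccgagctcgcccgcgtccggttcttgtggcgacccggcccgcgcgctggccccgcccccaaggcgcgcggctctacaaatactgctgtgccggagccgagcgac
Smad6, chr9:64022060-64022309, minus strand: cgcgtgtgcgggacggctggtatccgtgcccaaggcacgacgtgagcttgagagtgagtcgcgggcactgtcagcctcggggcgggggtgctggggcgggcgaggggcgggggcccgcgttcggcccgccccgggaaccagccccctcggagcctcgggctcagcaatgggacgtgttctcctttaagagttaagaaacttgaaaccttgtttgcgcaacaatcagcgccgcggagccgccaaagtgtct
Msx1, chr5:37824586-37824835, minus strand: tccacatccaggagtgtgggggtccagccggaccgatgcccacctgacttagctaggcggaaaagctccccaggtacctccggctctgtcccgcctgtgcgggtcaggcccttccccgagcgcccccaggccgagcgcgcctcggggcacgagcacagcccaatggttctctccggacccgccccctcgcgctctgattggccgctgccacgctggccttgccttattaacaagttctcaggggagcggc
RefSeq promoter entries matched 8 of the 10 members, all but Bmp7 and Id1. GGCGCC, which reads the same on both strands, was found once each in Id2 and Id4 and in none of the other 6 windows, and 9.59% of the 32841 windows in the table held it. The 8 windows held 11 (Bmp4) to 35 (Id4) CG dinucleotides, against a median of 6 over all windows. At least as many were held by 35.6% of all windows for Bmp4 and by 2.97% for Id4. A match is a description of the letters and no measure of binding.

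The members spanned a wide range of levels, and the order was given per length, as CPM per kilobase of exon (RPKM). Id2 was highest, at 130 ± 11.7 RPKM in C (SD, n = 4) and 114 ± 11.7 in WT vehicle (n = 4). Id4, Id3 and Id1 followed at 11.1 ± 1.36, 9.42 ± 1.41 and 5.99 ± 1.45 RPKM in C, and at 11.5 ± 5, 12 ± 3.11 and 9.77 ± 2.6 in WT vehicle, so these 3 neighbours did not differ beyond their spread in WT vehicle. The ligand Bmp7 stood at 1.76 ± 0.387 RPKM in C and Bmp6 at 0.664 ± 0.268. Smad6 was at 0.468 ± 0.0778 RPKM in C and 0.864 ± 0.0679 in WT vehicle, and Msx1 at 0.26 ± 0.0978 and 0.41 ± 0.231. Bmp4 (0.06 ± 0.0171 RPKM in C) and Msx2 (0.0226 ± 0.0129) were the lowest.

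**Figure D1:**
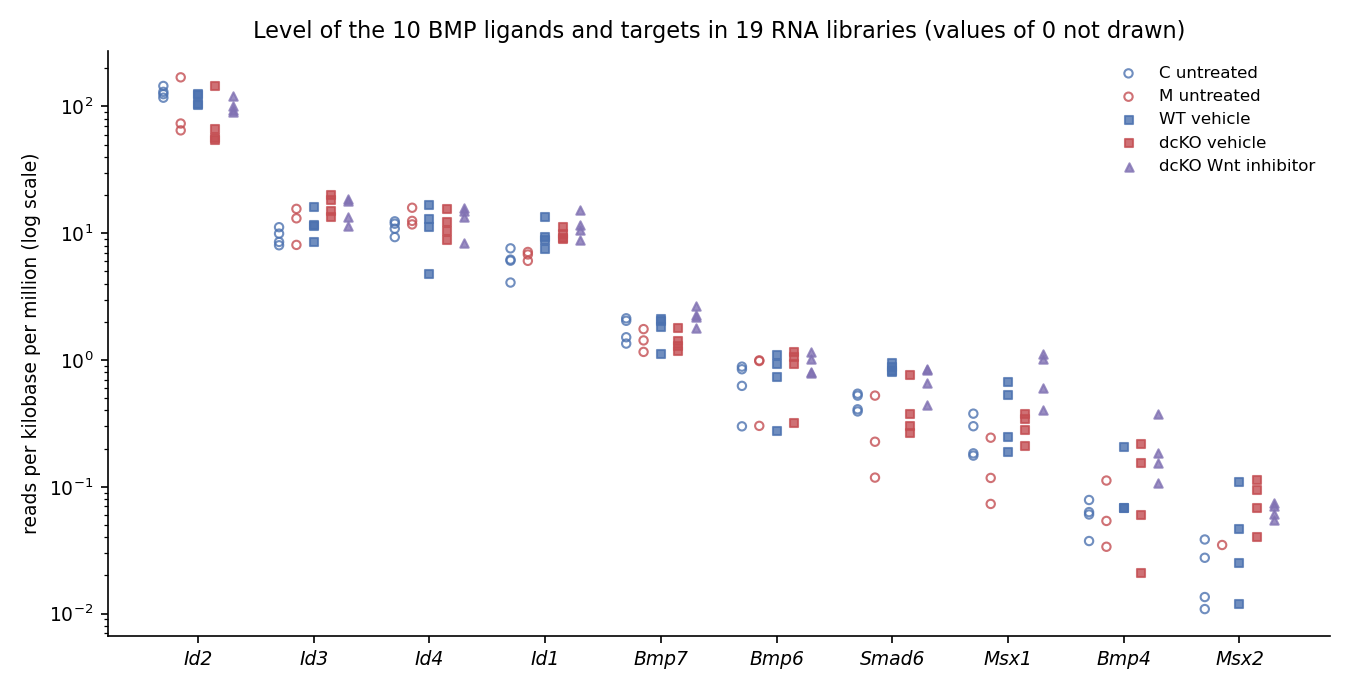
Level of each member in the 19 RNA libraries, as CPM per kilobase of exon (RPKM) on a log axis, with 1 symbol per library and colour and shape for the 5 groups. Id2 lies at the top, the other Id genes next, and Bmp4 and Msx2 at the bottom, with the groups of a gene mostly overlapping, and values of 0 are not drawn.

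Bmp4 and Msx2 did not pass the filter on low counts in edgeR's fits over all libraries of either experiment. Bmp4, a ligand of the dorsal midline, had 2 to 4 counts in each of the 7 untreated libraries, 0 to 12 in WT vehicle, 1 to 11 in dcKO vehicle and 5 to 21 in the inhibitor libraries. The count of 0, in WT vehicle 3, allows a level of up to 0.248 CPM (3 counts). Msx2 had 0 to 3 counts in untreated libraries and 1 to 8 in treated ones, and its 0 counts in M 2 and M 4 allow up to 0.252 and 0.121 CPM. No difference in these 2 genes was detectable at this depth. DESeq2 gave Bmp4 an adjusted p of 0.999 in dcKO vehicle against WT vehicle and 0.621 in the inhibitor group against dcKO vehicle, and Msx2 0.953 and 0.885. Bmp4 passed edgeR's filter without inhibitor libraries 1 and 3, with a log2 fold change of 1.24 (SE 0.75, adjusted p = 0.934) against dcKO vehicle. On the inhibitor side this estimate rests on 6 and 21 counts, in libraries 2 and 4. In bulk tissue, fewer cells of a type and less RNA per cell cannot be told apart, here or for the members below.

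In the untreated pallium, M was compared with C to ask what loss of BAF does to the pathway. With all 7 libraries, none of the 8 tested members passed an adjusted p under 0.05 (edgeR's quasi-likelihood test, Benjamini-Hochberg over 15770 genes), where 0.00634% of all genes did. DESeq2 also called 0 members (3.83% of its genes), and 0 members had an unadjusted p under 0.05, which 16% of all genes had. The estimates lay above 0 for 4 members and below 0 for 4, with a median log2 fold change of -0.08 against 0 over all genes.

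Library M 2 stood apart from M 3 and M 4 in several members. Id2 stood at 354, 318, 305 and 286 CPM in C 1 to 4, and at 414, 158 and 179 in M 2, 3 and 4. Both libraries in which Smarcc1 was low thus lay far below every control, and M 2 lay above every control. The log2 fold change of Id2 was -0.34 (SE 0.33, adjusted p = 0.665) with M 2 and -0.91 (SE 0.09, adjusted p = 0.000179) without it. Fits without M 2 rest on M 3 and M 4 alone on the dcKO side, and they are given here with the levels of M 2 already seen. Smad6, the feedback inhibitor, had 1.26, 1.68, 1.74 and 1.31 CPM in C and 1.68, 0.379 and 0.727 in M, which is 10 to 49 counts per library. For Smad6 the log2 fold change was -0.87 (SE 0.41, adjusted p = 0.344) with M 2 and -1.45 (SE 0.33, adjusted p = 0.0176) without it. Id3 went the other way, at 20, 17.8, 15.3 and 14.4 CPM in C and 14.5, 23.5 and 27.9 in M, with M 3 and M 4 above every control. For Id3 the log2 fold change was 0.4 (SE 0.2, adjusted p = 0.388) with M 2 and 0.6 (SE 0.13, adjusted p = 0.0158) without it. Without M 2, Id2 and Smad6 fell and Id3 rose, 3 of 8 members, in a fit where 12.4% of all 16024 genes were called. The markers of pallial neurons were low in the same libraries M 3 and M 4 (1890 and 2080 CPM, against at least 2530 in the other 5), and their part in these differences was not tested.

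The remaining members did not pass the test with or without M 2. Msx1 had 0.546, 0.931, 0.569 and 1.17 CPM in C and 0.756, 0.227 and 0.364 in M, from 6 to 26 counts, with a log2 fold change of -1 (SE 0.46, adjusted p = 0.323) and, without M 2, of -1.42 (SE 0.46, adjusted p = 0.0755). The 2 highest Msx1 values, in C 4 and C 2, were in the 2 control libraries with most meningeal marker RNA, and its part in this difference was not tested. Bmp7, which signals from the dorsal midline and the meninges, gave 5.42, 8.2, 6.08 and 8.58 CPM in C and 7.05, 4.66 and 5.74 in M (log2 fold change -0.3, SE 0.21, adjusted p = 0.516), with its highest values again in C 4 and C 2. Bmp6 (log2 fold change 0.27, SE 0.44), Id1 (0.15, SE 0.19) and Id4 (0.27, SE 0.13) had adjusted p of 0.811, 0.75 and 0.331.

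**Figure D2:**
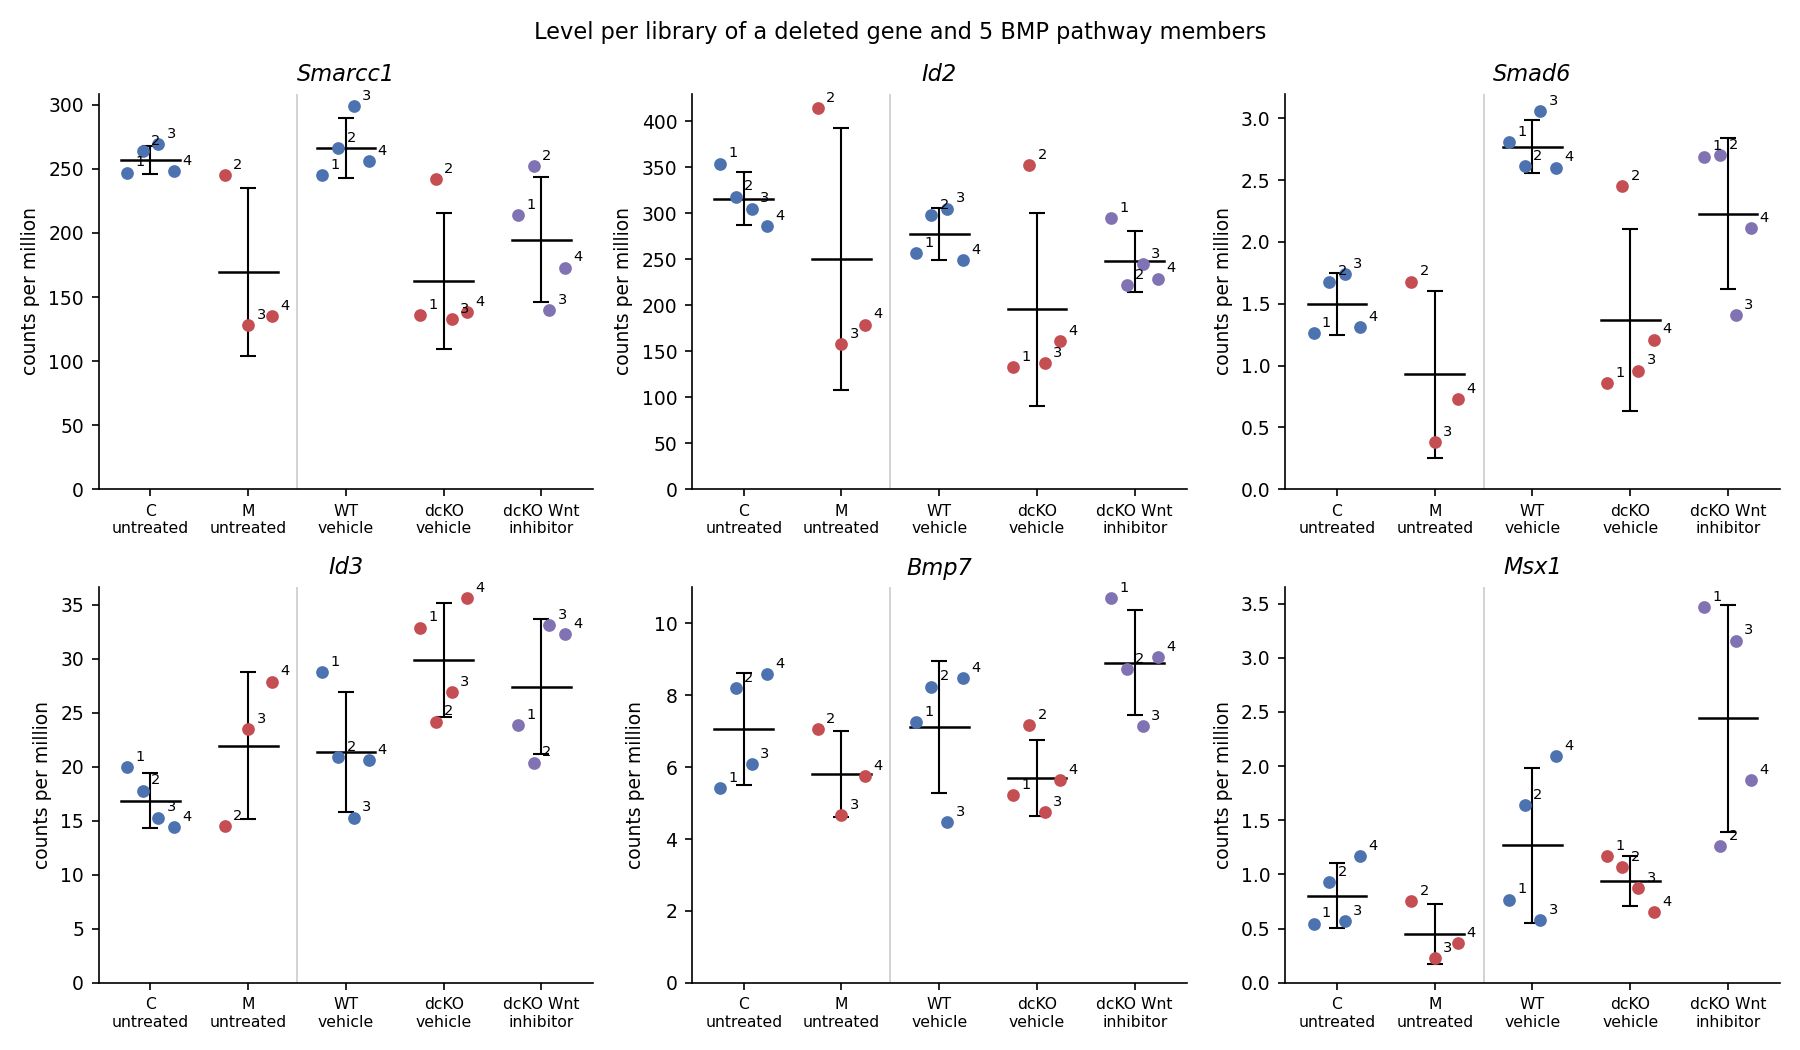
CPM of the deleted gene Smarcc1 and of 5 members in each of the 19 RNA libraries, numbered by replicate, with the mean and SD of each group as lines. Libraries M 2 and dcKO vehicle 2 lie with the controls for Smarcc1 and at or above them for Id2, away from the other libraries of their groups.

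In the treated cortex, dcKO vehicle was compared with WT vehicle to ask the same in embryos whose dams had received the vehicle. None of the 8 tested members passed an adjusted p under 0.05 by edgeR or by DESeq2, where 0.00611% of 16372 genes did by edgeR and 0.616% of its genes by DESeq2. At an unadjusted p under 0.05, which 9.46% of all genes had (4.14% higher and 5.33% lower), 1 member was higher (Id3) and 1 lower (Smad6). The median log2 fold change of the 8 members was -0.16 against 0 over all genes.

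Smad6 had 2.81, 2.61, 3.06 and 2.6 CPM in WT vehicle and 0.857, 2.45, 0.959 and 1.21 in dcKO vehicle. All 4 dcKO libraries lay below all 4 WT libraries, an order that 1.84% of all genes with a mean count of at least 10 showed in this direction. Its log2 fold change was -1.01 (SE 0.31, adjusted p = 0.31), and without dcKO vehicle 2 it was -1.45 (SE 0.25, adjusted p = 0.00946). Id2 gave 257, 298, 305 and 249 CPM in WT vehicle and 133, 352, 137 and 161 in dcKO vehicle, so that libraries 1, 3 and 4 lay below and library 2 above every WT library. For Id2 the log2 fold change was -0.5 (SE 0.26, adjusted p = 0.578) with library 2 and -0.95 (SE 0.13, adjusted p = 0.00394) without it. Without that library, 2 of 8 members fell and 0 rose, in a fit where 3.4% of 16526 genes were called. Here too the markers of pallial neurons were low in libraries 1, 3 and 4 (1840, 2000 and 2240 CPM, against 3230 in library 2), and their part was not tested.

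Id3 gave 28.8, 20.9, 15.3 and 20.6 CPM in WT vehicle and 32.9, 24.2, 26.9 and 35.6 in dcKO vehicle, and the groups overlapped through WT vehicle 1. The log2 fold change of Id3, 0.48 (SE 0.2), had an adjusted p of 0.47, and of 0.205 without dcKO vehicle 2. Bmp7 was at 7.26, 8.24, 4.47 and 8.48 CPM in WT vehicle and 5.23, 7.17, 4.75 and 5.64 in dcKO vehicle, with a log2 fold change of -0.33 (SE 0.21, adjusted p = 0.672). Bmp6 (0.16, SE 0.38), Id1 (0, SE 0.19), Id4 (0.04, SE 0.31) and Msx1 (-0.48, SE 0.41) had adjusted p of 0.977, 0.999, 0.996 and 0.836.

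The effect of dcKO was also compared between the 2 experiments, as the difference of the 2 log2 fold changes in 1 fit of 15 libraries. The differences ranged from -0.23 (Id4, SE 0.4) to 0.51 (Msx1, SE 0.64) among the 8 tested members, and all had an adjusted p of 1. edgeR called 0 of 15999 genes and DESeq2 called 0 (0.544% of genes at an unadjusted p under 0.05 by edgeR, and no member). Same-numbered libraries resembled each other across the experiments, as given above, which this fit did not take into account. With them as a block, the differences of Id2 and Smad6 were 0 (SE 0.12) and -0.08 (SE 0.26), again with an adjusted p of 1. These p-values do not show that the effects were alike.

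The third question was what the Wnt inhibitor does to the members in dcKO cortex. Set against dcKO vehicle, the inhibitor group had 0 of 8 members called by edgeR or by DESeq2 (0.055% of 16372 genes by edgeR and 1.84% by DESeq2), and 3 higher at an unadjusted p under 0.05, Msx1, Bmp7 and Smad6, where 15.8% of all genes passed in either direction and 7.85% upwards. Of the 8 estimates 7 lay above 0, with a median of 0.29 against 0.01 over all genes. This comparison shares the dcKO vehicle libraries with the one before, so a value that was low there enters here with the opposite sign.

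Msx1 gave 3.47, 1.26, 3.16 and 1.87 CPM in inhibitor libraries 1 to 4, from 22 to 65 counts, and 1.17, 1.07, 0.871 and 0.653 in dcKO vehicle. All inhibitor libraries lay above all dcKO vehicle libraries, an order that 4.64% of all genes showed in this direction. The log2 fold change was 1.36 (SE 0.4, adjusted p = 0.185). Without dcKO vehicle 2 and inhibitor library 2 it was 1.63 (SE 0.43, adjusted p = 0.0477), and without inhibitor libraries 1 and 3, where choroid plexus markers summed to 868 and 498 CPM, it was 0.75 (SE 0.44, adjusted p = 0.924). The part of choroid plexus RNA was not tested. In WT vehicle, libraries 4 and 2 had 2.09 and 1.64 CPM of Msx1, with 136 and 17.3 CPM of choroid plexus markers and 81.4 and 82.4 of meningeal ones, and libraries 1 and 3 had 0.767 and 0.579 CPM of Msx1.

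Bmp7 was at 10.7, 8.73, 7.14 and 9.05 CPM in the inhibitor libraries, of which only library 3 overlapped with dcKO vehicle. Bmp7 had a log2 fold change of 0.64 (SE 0.2, adjusted p = 0.199), 0.78 (SE 0.23, adjusted p = 0.0649) without both libraries numbered 2, and again 0.64 (SE 0.24, adjusted p = 0.756) without inhibitor libraries 1 and 3. The fit without libraries 1 and 3 rests on inhibitor libraries 2 and 4. Library 2 still had 168 CPM of choroid plexus markers, against at most 12.1 in dcKO vehicle, and Smarcc1 at the control level. Library 4 had 75.6 CPM of meningeal markers, against at most 30.1 in dcKO vehicle. Inhibitor libraries 1 and 3, with the 2 highest choroid plexus sums, had the highest and the lowest Bmp7 of the 4. The part of choroid plexus and meningeal RNA was not tested.

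**Figure D3:**
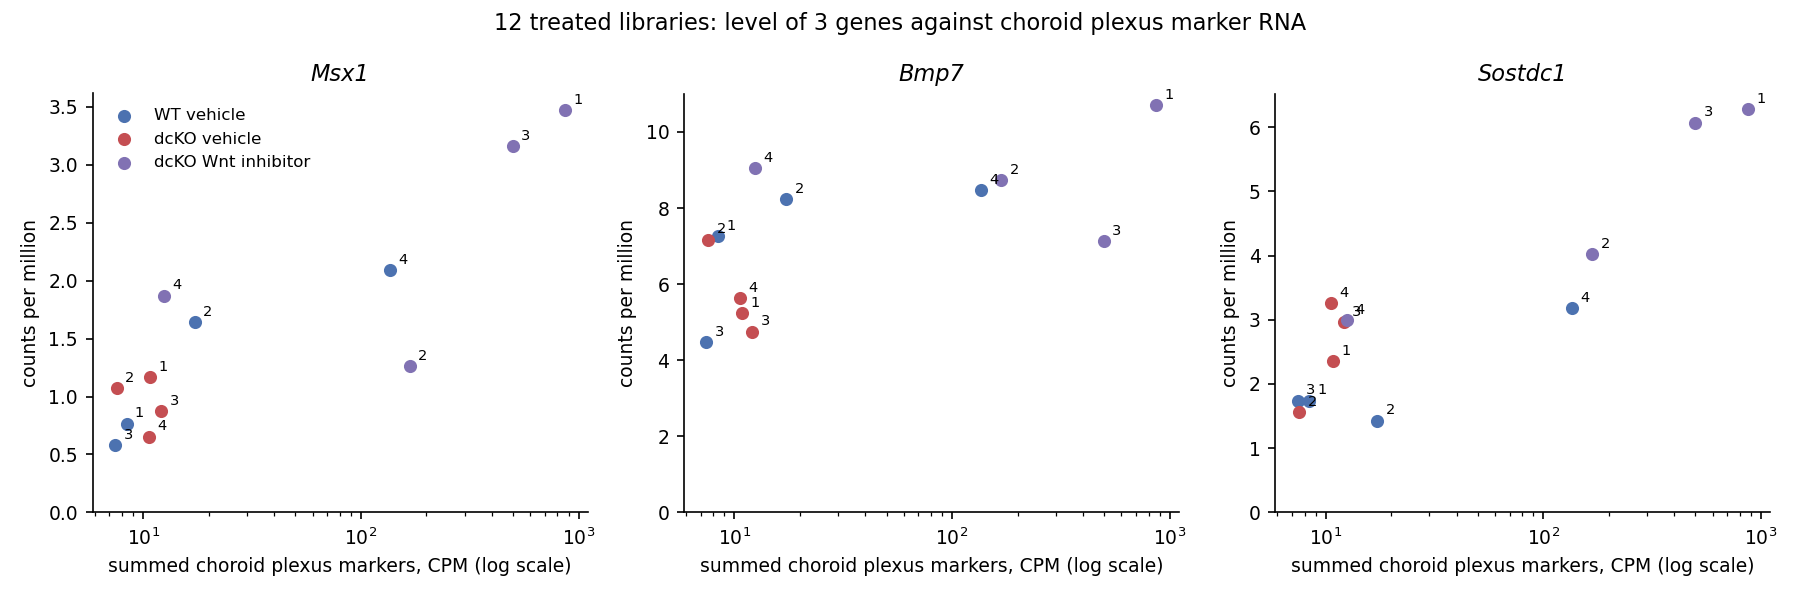
CPM of Msx1, Bmp7 and the secreted antagonist Sostdc1 in the 12 treated libraries, against the summed CPM of 9 choroid plexus markers on a log axis, numbered by replicate. Inhibitor libraries 1 and 3, at 868 and 498 CPM of markers, hold the most Msx1 and Sostdc1, and library 1 holds the most Bmp7.

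Smad6 had 2.69, 2.7, 1.41 and 2.11 CPM in the inhibitor libraries, between the dcKO vehicle libraries 1, 3 and 4 and the WT vehicle range or within the latter. Smarcc1 was at 214, 252, 140 and 173 CPM in these libraries, and its part in the levels of Smad6 and Id2 in this group was not tested. The log2 fold change against dcKO vehicle was 0.69 (SE 0.31, adjusted p = 0.306), and 1.03 (SE 0.26, adjusted p = 0.0432) without both libraries numbered 2. Id2 gave 295, 222, 245 and 229 CPM, all above dcKO vehicle 1, 3 and 4. Its log2 fold change was 0.34 (SE 0.25, adjusted p = 0.535), and 0.84 (SE 0.13, adjusted p = 0.012) without both libraries numbered 2. The markers of pallial neurons were also higher in the inhibitor libraries (2450 to 2710 CPM) than in dcKO vehicle 1, 3 and 4, and their part was not tested. Without both libraries numbered 2, Id2, Msx1 and Smad6 rose, 3 of 8 members, in a fit where 6.09% of 16547 genes were called, and without inhibitor libraries 1 and 3 no member and 0% of 16856 genes were called. Id3 (log2 fold change -0.12, SE 0.2), Id1 (0.24, SE 0.19), Id4 (0.17, SE 0.31) and Bmp6 (0.13, SE 0.38) had adjusted p of 0.804, 0.565, 0.824 and 0.894.

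Against WT vehicle, the inhibitor group had 0 of 8 members called by edgeR or by DESeq2 (0.0977% of 16372 genes by edgeR and 5.08% by DESeq2) and 1 higher at an unadjusted p under 0.05, where 19.8% of all genes passed in either direction and 9.53% upwards. This was Msx1, with a log2 fold change of 0.88 (SE 0.39, adjusted p = 0.235). Without inhibitor library 2, Msx1 had 1.08 (adjusted p = 0.0916), with 0 of 8 members and 8.74% of 16621 genes called, and without inhibitor libraries 1 and 3 it had 0.27 (SE 0.43). Id2 and Smad6 had log2 fold changes of -0.16 (SE 0.25) and -0.32 (SE 0.3), with adjusted p of 0.753 and 0.583, and the inhibitor and WT vehicle libraries overlapped in every member.

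**Figure D4:**
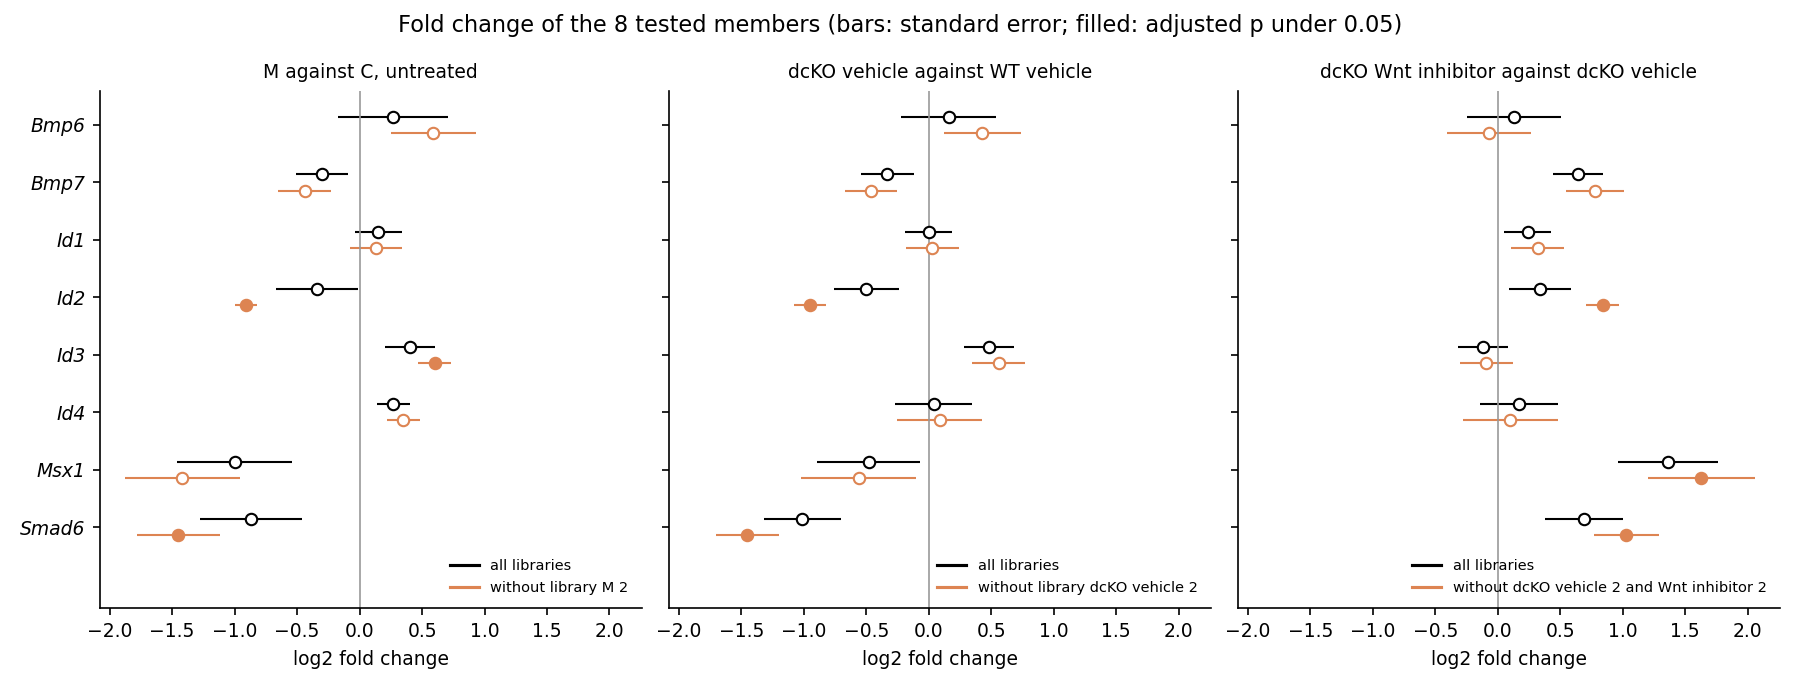
Log2 fold change of the 8 tested members in 3 comparisons, with SE bars, over all libraries (black) and without the libraries numbered 2 that held Smarcc1 at the control level (orange); filled points have an adjusted p under 0.05. Id2 and Smad6 are filled in all 3 orange sets, below 0 in the first 2 and above 0 in the third.

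The rest of the pathway was read from a list of 47 other genes, with 10 ligands, 10 receptors and co-receptors, 4 receptor and common Smads, 6 inhibitors, 12 secreted antagonists and 5 further targets. Of these 43 passed the filter in each experiment, and 0 were called by edgeR in any of the 4 comparisons. At an unadjusted p under 0.05, 8 were higher and 6 lower in M against C, 4 and 7 in dcKO vehicle against WT vehicle, 2 and 4 in the inhibitor group against dcKO vehicle, and 5 and 3 in it against WT vehicle, where 16%, 9.46%, 15.8% and 19.8% of all genes passed. DESeq2 called Bmp3, Chrdl1 and Nbl1 in the first, Chrdl1 in the second, 0 in the third and Sostdc1 and Dlx5 in the last, beside 3.83%, 0.616%, 1.84% and 5.08% of all its genes. Without M 2, 6 rose and 8 fell, and without dcKO vehicle 2, 2 rose and 5 fell, beside 12.4% and 3.4% of all genes.

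Smad7, the partner of Smad6 in feedback inhibition, was at 15.3, 13.3, 15.7 and 12.4 CPM in WT vehicle and 9.74, 14.2, 10.3 and 10.4 in dcKO vehicle, with libraries 1, 3 and 4 below every WT library. Its log2 fold change was -0.34 (adjusted p = 0.446), and -0.48 (SE 0.12, adjusted p = 0.0543) without dcKO vehicle 2. In M against C the log2 fold change of Smad7 was -0.21 (SE 0.13, adjusted p = 0.472). Unlike Smad6, it was not called there without M 2. The inhibitor libraries held 16.3, 14.1, 15.4 and 14.6 CPM of Smad7, and without both libraries numbered 2 it rose against dcKO vehicle (0.6, SE 0.13, adjusted p = 0.0287).

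The next 4 genes of this list were chosen after their values were seen. Bmp3, a divergent ligand known to oppose other BMPs, had 6.39, 6.29, 6.51 and 6.42 CPM in C 1 to 4 and 8.23, 10.4 and 11.6 in M 2, 3 and 4. Every M library lay above every C library, as for 8.97% of all genes. The log2 fold change of Bmp3 was 0.66 (SE 0.13, adjusted p = 0.107 by edgeR and 0.00236 by DESeq2), and 0.78 (SE 0.11, adjusted p = 0.00168) without M 2. In the treated cortex it had 10.4, 14.9, 16.1 and 12.7 CPM in WT vehicle, 18.7, 16.1, 22 and 23.8 in dcKO vehicle, and 7.77, 12.7, 16.7 and 15.6 in the inhibitor libraries. These groups gave log2 fold changes of 0.58 (SE 0.22, adjusted p = 0.399) for dcKO vehicle against WT vehicle and -0.61 (SE 0.22, adjusted p = 0.23) for the inhibitor group against dcKO vehicle.

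Chrdl1 encodes a secreted protein that binds and holds back BMP ligands. DESeq2 called it in both dcKO comparisons. It had 4.09 to 6.14 CPM in C, 5.2, 15.3 and 15.3 in M 2, 3 and 4, 3.32 to 4.38 in WT vehicle, and 10.9, 5.03, 13.5 and 14.8 in dcKO vehicle. Its log2 fold change was 1.31 (SE 0.34, adjusted p = 0.152) in M against C and 1.49 (SE 0.35, adjusted p = 0.222) in dcKO vehicle against WT vehicle. Without the libraries numbered 2 these were 1.63 (SE 0.16, adjusted p = 0.000144) and 1.73 (SE 0.29, adjusted p = 0.00839). The inhibitor libraries had 2.69, 4.19, 7.43 and 7.85 CPM. All lay below dcKO vehicle 1, 3 and 4, while inhibitor libraries 3 and 4 lay above dcKO vehicle 2. Over all libraries the log2 fold change against dcKO vehicle was -0.98 (SE 0.34, adjusted p = 0.223).

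Bmpr1b, a type I BMP receptor, went the other way. It had 13.4 to 22.6 CPM in C and 17.3, 9.24 and 11.5 in M, and its log2 fold change was -0.56 (adjusted p = 0.295) with M 2 and -0.83 (SE 0.19, adjusted p = 0.0228) without it. In dcKO vehicle against WT vehicle it was -0.68 (SE 0.23, adjusted p = 0.364), and -0.91 (SE 0.21, adjusted p = 0.036) without dcKO vehicle 2. Sostdc1, an antagonist that the choroid plexus is known to express, had 6.28, 4.02, 6.07 and 2.99 CPM in the inhibitor libraries and 1.43 to 3.18 in WT vehicle (log2 fold change 1.23, SE 0.32, adjusted p = 0.0941 by edgeR and 0.00996 by DESeq2). Without inhibitor libraries 1 and 3 it was 0.77 (SE 0.35, adjusted p = 0.614). The level of Sostdc1 had the same order over the 4 inhibitor libraries as the choroid plexus markers, and the part of choroid plexus RNA was not tested.

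Across the 12 treated libraries, members were also set beside each other and beside all genes with a mean count of at least 50, as a description with no test, since the libraries share groups, depth and makeup. Id2 and Smad6 moved together (Pearson r = 0.88 of log2 CPM), and so did Bmp7 and Msx1 (0.74), while Id3 ran against Smad6 (-0.69) and Id1 against Id4 (-0.68). The genes most like Smad6 were Nes, Tle3 and Mfng (r = 0.972, 0.964 and 0.964), and those most like Id2 were Hopx, Ezr and Igfbp3 (0.969, 0.964 and 0.963). For Id3 they were Hyal2, Mfge8 and Nxn (0.958, 0.956 and 0.955), and for Bmp7 they were Isyna1, Mafg and Snx11 (0.927, 0.923 and 0.895). Msx1 had r = 0.81 with the choroid plexus markers, Bmp7 0.57, and Id2 and Smad6 0.17 and 0.14. With the meningeal markers Msx1 had r = 0.55 and Bmp7 0.5. Among all the marker lists, Bmp7 had its highest r with the astrocyte lineage (0.66), where Smad6 had 0.73. With the markers of pallial neurons, Id2 and Smad6 had r = 0.95 and 0.92, Msx1 0.05, and Id3 and Bmp6 -0.7 and -0.69. Bmp6 had r = 0.75 with the interneuron markers.

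H3K27me3, the mark of Polycomb repression, was read from the peak lists of 4 C and 4 K libraries, as the highest fold enrichment over input within merged regions. From 2000 bp before the gene's start to its end, a region called in 2 or more libraries was present at 8 of the 10 members, and each of the 8 covered the annotated start. Of 21938 protein-coding genes 31.6% had such a region. At Bmp4, Bmp6, Msx1 and Msx2 the region held a peak in all 8 libraries, which 4.52% of protein-coding genes had. At Msx1, 4 C and 3 K libraries had a peak within the window of the gene itself. The peak of the remaining K library lay elsewhere in the merged region. The regions at Msx1 (chr5:37808303-37840951, mm10), Msx2 (chr13:53457361-53479718) and Bmp4 (chr14:46379142-46400153) ran over 32649, 22358 and 21012 bp, past both ends of the gene. At Bmp6 (chr13:38343808-38349833) and Smad6 (chr9:64016684-64023541) the regions of 6026 and 6858 bp lay around the start and left most of the long gene body out.

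The Id genes carried less of the mark. Id3 (chr4:136140356-136148645) had a peak in 3 C and 3 K libraries with fold enrichments of 4.5 to 6.68, and Id1 (chr2:152734499-152739095) in 2 and 2 with 3.68 to 6.16. At Id2 and Id4, both among the members with the most RNA, a peak was called in 1 library each, K 4, at 3.02 and 3.52. K 4 held the most peaks of the 8 lists, 46000 against 6674 to 28659 in the others.

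None of the 8 member regions passed the test between K and C. limma called 0 of 22220 regions at an adjusted p under 0.05 (0.221% at an unadjusted p under 0.05), the 8 had an adjusted p of 1, and C and K libraries overlapped in all 8, where 0.18% of regions had every K above every C value and 0.0315% the opposite. Bmp4 had fold enrichments of 8.36, 5.12, 10.2 and 5.2 in C 1 to 4 and 14.6, 18.8, 5.8 and 8.53 in K 1 to 4. Its log2 difference of K minus C was 0.65 (SE 0.53). Bmp6 had 12.4, 5.77, 12.1 and 5.29 in C and 16.4, 19.5, 5.34 and 12.1 in K, a log2 difference of 0.54 (SE 0.49). In both genes the lower values of each group overlapped and the 2 highest values were in K 1 and K 2.

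Smad6 had 8.13, 3.73 and 3.87 in C 1, 2 and 4 and 9.77, 4.7 and 9.03 in K 1, 3 and 4, with no peak in C 3 and K 2, and a log2 difference of 0.46 (SE 0.82). Over its whole merged region, Msx1 (14.5, 6.51, 7.08 and 6.06 in C, 21.6, 5.45, 6.52 and 9.79 in K) differed by 0.22 (SE 0.53). Msx2, Id3, Id1 and Bmp7 differed by 0.07 (SE 0.57), 0.09 (SE 0.86), 0.19 (SE 0.9) and -0.23 (SE 0.7). Bmp7 had 10.1, 4.49, 4.84 and 4.53 in C and 11.5, 5.06 and 8.93 in K 1, 3 and 4. No peak was called at Bmp7 in K 2, which entered its estimate as a fold enrichment of 1. The estimate was above 0 in 7 of the 8 regions, with a median of 0.2 against 0.05 over all regions. Of all regions 59.8% had an estimate above 0, a share that moved between 41.6% and 76.4% when 1 library was left out (C 3 and K 2). The fold enrichments moved with the share of tags left once 1 tag per position was kept. In C 2, C 4 and K 3, which kept 61.5% to 66.5% of their tags, all member regions lay between 3.68 and 6.52, and in the other 5, which kept 12.3% to 32.8%, they reached 12.1 to 21.6. The part of this share in the values of K and C was not tested.

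**Figure D5:**
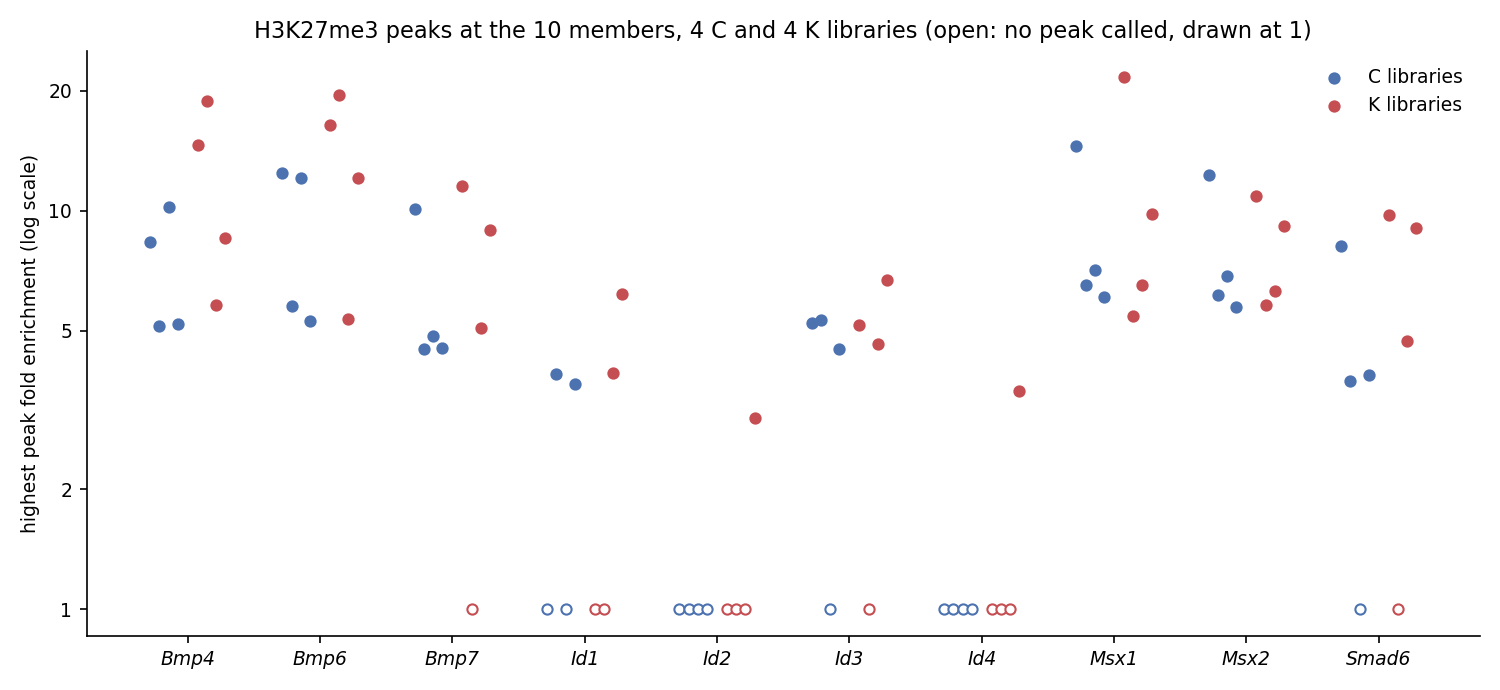
Highest H3K27me3 fold enrichment of a peak in the region at each member, on a log axis, for the 4 C and 4 K libraries, with open points at 1 where no peak was called. The regions at Bmp4, Bmp6, Msx1 and Msx2 hold a peak in every library, though that of a K library at Msx1 lies outside the window of the gene. Id2 and Id4 have a peak in K 4 alone, and the C and K points overlap at each of the 8 members with a region.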

How the data were processed

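RNA-seq tables were deposited as raw counts of reads per gene, which the authors made with STAR and featureCounts from TruSeq libraries aligned to mm10. H3K27me3 peaks were called by the authors with MACS2 in broad mode against a pooled input per group, keeping 1 tag per position, and deposited per library with the pileup signal, the fold enrichment ratio over input and, for each peak, the −log10 q-value. Here genes with low counts were removed by edgeR's filterByExpr, counts were scaled by TMM, and groups were compared by edgeR 4.0.16's quasi-likelihood test in R 4.3.3, one fit per experiment, with Benjamini-Hochberg adjustment over all genes and a threshold of 0.05. Peaks were merged over libraries, and log2 fold enrichment, with 1 where no peak was called, was compared in limma 3.58.1. Scripts were tested on simulated data. Groups came from the sample labels, and the letters C, M and K were read with the study's methods. Members, gene lists and alternatives were chosen with earlier results of these data known. Pathway genes were to be named if called by edgeR over all libraries or if the family partner of a member, and other genes named were chosen after their values were seen. The library kit does not mark strand, so reads of a gene and an overlapping antisense gene cannot be told apart. The alternatives were DESeq2 1.42.0 and its size factors, no filter, 2 groups only, a replicate block, each library left out and other peak settings. Same-numbered libraries of different groups had mean correlations of -0.137 (untreated) and 0.093 (treated), so the numbers were not taken as pairs. The 2 input libraries were not analysed here.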

Additional observations from a re-analysis of the deposited data

Results flagged for a closer look

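Of 65 groups of 4 libraries examined for a value far from the other 3, 7 held one, and chance alone gives about 1 in 20. In dcKO vehicle, library 2 stood apart with 352 CPM of Id2, and the same library stood apart in the deleted genes, with 242 CPM of Smarcc1 and 692 CPM of Smarcc2. Choroid plexus markers stood apart in C 4, at 138 CPM, and in WT vehicle 4, at 136 CPM, which are same-numbered libraries of the control groups of the 2 experiments. In H3K27me3, library C 1 stood apart with fold enrichments of 10.1 at Bmp7 and 14.5 at Msx1, above the other 3 C libraries.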

How the results depend on the processing

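Which libraries entered decided the number of genes called. Over the fits that left out 1 library each, the calls ranged from 0 to 1994 genes and 0 to 3 members in M against C, 0 to 562 and 0 to 2 in dcKO vehicle against WT vehicle, 0 to 420 and 0 to 1 in the inhibitor group against dcKO vehicle, 0 to 1453 genes in it against WT vehicle, and 0 to 1 H3K27me3 regions (1 without C 1), with the highest RNA count in each case without a dcKO library numbered 2. Against 1, 1, 9 and 16 genes in these 4 RNA comparisons, DESeq2 called 553, 118, 330 and 789 genes, and edgeR without the filter called 154, 0, 20 and 58. DESeq2's size factors gave 0 in dcKO vehicle against WT vehicle, and fits of the 2 groups alone gave 0 there and 8 in the inhibitor group against WT vehicle. Alternatives chosen after seeing the data gave 1007 genes and 3 members (both dcKO libraries numbered 2 left out) and 0 genes (inhibitor libraries 1 and 3 left out) in the inhibitor group against dcKO vehicle, and the latter gave 0 against WT vehicle. The cause of these shifts was not tested. Apart from them, 106 summary values kept their size and 624 of the single values their direction and side of the threshold, while 9 passed the threshold only under an alternative.

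With the replicate block, 0, 5, 7 and 189 genes were called in the 4 RNA comparisons, 0 in the comparison of the dcKO effects and 0 regions in H3K27me3, and no member. The same-number correlations in H3K27me3 were 0.579, -0.244, -0.323 and 0.309.

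Signs turned only in values that were not called. Against dcKO vehicle, the inhibitor value of Bmp6 became -0.07 without both libraries numbered 2, and that of Id1 became 0 without inhibitor libraries 1 and 3. In the comparison of the dcKO effects Bmp7 became 0.1 under the replicate block, and 0.01 with same-numbered libraries of the experiments as a block (also chosen after seeing the data), where Id2 became 0. With pileup in place of fold enrichment, K minus C was -0.05 at Id3, -0.06 at Msx1 and -0.17 at Msx2. With 1 library left out, log2 fold changes ranged in dcKO vehicle against WT vehicle from -0.09 to 0.43 (Bmp6), -0.1 to 0.2 (Id1) and -0.22 to 0.27 (Id4), and in the inhibitor group from -0.14 to 0.3 (Bmp6, against dcKO vehicle) and -0.05 to 0.44 (Id4, against WT vehicle). In the comparison of the dcKO effects they ranged from -0.43 to 0.15 (Bmp6), -0.18 to 0.12 (Bmp7), -0.28 to 0.05 (Id1), -0.61 to 0.42 (Id2), -0.12 to 0.3 (Id3), -0.49 to 0.01 (Id4) and -0.57 to 0.45 (Smad6). In H3K27me3 they ranged from -0.66 to 0.52 (Bmp7), -0.3 to 0.57 (Id1), -0.49 to 0.7 (Id3), -0.18 to 0.51 (Msx1), -0.09 to 0.32 (Msx2) and -0.12 to 1.18 (Smad6). Depth kept Bmp4 and Msx2 out of edgeR's fits over all libraries, and Msx1 and Smad6 rest on 6 to 67 counts per library.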

Other observations

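In the treated cortex, library 1 of each group held the lowest Id4 of its group, at 18.4 CPM in WT vehicle, 33.8 in dcKO vehicle and 32 in the inhibitor group. The same 3 libraries held the highest Id1 of their groups, at 15.7, 12.9 and 17.8 CPM.

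Summed markers of the cortical hem (Wnt3a, Wnt2b, Wnt8b, Wnt5a and Rspo2), the midline domain known as a source of Wnt and BMP ligands, lay between 45.4 and 56.2 CPM in C and between 66.8 and 74 in M. In the treated cortex they lay between 41.1 and 57.7 CPM in WT vehicle, 59.1 and 74.9 in dcKO vehicle, and 39.8 and 59.8 in the inhibitor group. The dcKO libraries labelled M 2 and dcKO vehicle 2 held the lowest sum of their groups, at 66.8 and 59.1 CPM, and lay above every library of the matching control group. Of single genes with a mean count of at least 10, 8.97% showed this order in M against C. In dcKO vehicle against WT vehicle 3.94% did. The members of the list differed. The mean of Rspo2 was 13.5 CPM in C and 25.7 in M, and that of Wnt2b 4.39 and 10.2, while Wnt5a had 31.6 and 31.3 and Wnt3a 0.678 and 0.552. No test was run on these sums.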
